A study of Mus musculus with 4 samples.

Results

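The 10 genes described here encode receptors and ligands of the FGF, HGF and EGF systems: the FGF receptor genes Fgfr1, Fgfr2, Fgfr3 and Fgfr4 with the ligand gene Fgf2, the HGF receptor gene Met with its ligand gene Hgf, and the EGF receptor gene Egfr with the ligand genes Hbegf and Areg. They were taken by gene symbol from the per-library expression tables, which held 43437 gene entries. All 10 were found. Of these, 7 reached a mean of 1 FPKM (fragments per kilobase of transcript, scaled to the size of the library, so that genes of different length can be compared) over the 4 libraries and entered the test, together with 12021 genes in all. Fgfr2, Fgfr3 and Hgf were below that mean and are given by their values alone.

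RNA was sequenced from muscle stem cells (satellite cells) of C57BL/6 mice aged 4 weeks. All mice were HDAC4 fl/fl and carried a tamoxifen-inducible Cre recombinase inserted into 1 Pax7 allele, so that a single intact copy of Pax7 remained in both groups. The HDAC4 KO group received tamoxifen, which switches the recombinase on in Pax7-expressing cells, and the control group received vehicle. Each group held 2 libraries, numbered 3 and 4, and tamoxifen and the loss of HDAC4 cannot be told apart between these groups. The cells were sorted as negative for CD45, Ter119, CD31 and Sca1 and positive for integrin alpha 7, and were kept for 24 h in growth medium. Whether different animals gave the libraries of a group is not stated, and the spread on which the tests rest may be technical.

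Hdac4, the targeted gene, checked the labels. It stood at 0.29 and 0.433 of the control mean in HDAC4 KO libraries 3 and 4, against 0.926 and 1.07 in control libraries 3 and 4. The log2 difference was -1.13 ± 0.18 (SE, limma, n = 2 each), with an adjusted p of 0.161 over all genes tested and of 0.048 when protein-coding genes alone were tested, a threshold that 0.619% of those genes passed. Exons of the long non-coding gene Gm26720 cover 3536 bases of Hdac4 exons on the opposite strand, and whether fragments were counted by strand is not given in the sources used here.

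The satellite cell genes Pax7, Myf5 and Myod1 were present in all 4 libraries. For each of them both HDAC4 KO libraries lay below both controls, as they did for 17.7% of all genes tested. Pax7 stood at 17.1 and 17.1 FPKM in HDAC4 KO, against 18.4 and 21.4 FPKM in control (log2 difference -0.20, unadjusted p = 0.134, adjusted p = 0.464, limma). Myf5 stood at 10.8 and 10.97 FPKM in HDAC4 KO, against 13.99 and 13.03 FPKM in control (log2 difference -0.29, unadjusted p = 0.0331, adjusted p = 0.3, limma). Myod1 stood at 563 and 530.0 FPKM in HDAC4 KO, against 633 and 833 FPKM in control (log2 difference -0.41, unadjusted p = 0.0506, adjusted p = 0.338, limma). Of the 6 satellite cell markers tested 5 were below 0, while 57.5% of all genes tested were above it. Among the 5 were Vcam1 (log2 difference -0.021) and Itga7 (-0.035), whose groups overlapped. Sdc4 went the other way, with both HDAC4 KO libraries above both controls (log2 difference 0.48, unadjusted p = 0.0286, adjusted p = 0.287, limma). Calcr, with a mean under 1 FPKM and no test, was higher in both HDAC4 KO libraries as well.

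The library of control 3 stood apart in genes of mature muscle fibres: the summed level of the 7 myofibre markers with a settled level was 104 and 208 FPKM in HDAC4 KO 3 and 4, against 1568 FPKM in control 3 and 139 FPKM in control 4. None of the 4 tested had an unadjusted p under 0.05. Of 7 glial markers, the 5 tested had an unadjusted p under 0.05 and were higher in HDAC4 KO, and the 6 with a settled level summed to 15.3 and 12.5 FPKM, against 6.66 and 3.99 FPKM in control. Of 7 smooth muscle and pericyte markers, the 3 tested did likewise. The 6 with a settled level summed to 95.8 and 116 FPKM in HDAC4 KO, against 49.7 and 34.6 FPKM in control. Nearly all of these sums came from Acta2 and Tagln. Of the smooth muscle and pericyte markers with a mean under 1 FPKM, Myh11, Cnn1 and Rgs5 overlapped between the groups. Pdgfrb, also under that mean, was higher in both HDAC4 KO libraries. Over all genes tested, 11% had such a p and were higher, and 3.81% had one and were lower. Among blood cell markers, 2 of 4 tested had such a p and were higher (Lyz2, log2 difference 1.01, and Cd14, 0.39). The others tested were Cd68 (0.295), higher in both HDAC4 KO libraries, and Hbb-bs (-1.852), which overlapped between the groups. Csf1r, with a mean under 1 FPKM, overlapped as well, and Cd3e, also under it, was lower in both HDAC4 KO libraries. Ptprc, which encodes CD45, was at most 0.0275 FPKM. Of the endothelial markers 2 of 4 tested had such a p and were higher (Cdh5, log2 difference 0.79, and Tek, 0.47). The others tested, Pecam1 (0.011) and Emcn (-0.06), overlapped between the groups, as did Kdr, Cldn5 and Vwf with a mean under 1 FPKM. Of the tendon cell markers 1 of 2 tested was higher likewise, and of the fibro-adipogenic markers 0 of 5. None of these markers passed an adjusted p of 0.05 over all genes tested, and with protein-coding genes alone 3 smooth muscle and pericyte markers and 2 glial markers did. The part of other cells in the differences below was not tested, and in bulk RNA fewer cells of a type and less RNA per cell cannot be told apart.

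All 3 systems signal through receptor tyrosine kinases. A ligand joins receptor chains, which phosphorylate each other and recruit adaptors such as GRB2, and these activate RAS and the kinases RAF, MEK and ERK. ERK in turn induces its own brakes, among them the Sprouty proteins and the phosphatase DUSP6. In muscle, HGF and FGF2 are known as signals that bring satellite cells out of quiescence and keep myoblasts dividing, and HGF is stored in the matrix as a precursor that proteases must cut.

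Many stored numbers had lost their decimal point, and it was put back from the confidence bounds of each estimate and from the group values. For 6 of the 10 genes (Fgfr2, Fgfr3, Fgf2, Hgf, Egfr and Areg) the digits settled the level, and for Fgfr1 the width of the bounds settled it with a weight of 0.996. For Fgfr4, Met and Hbegf the ratios between libraries were fixed, but a power of 10 common to all 4 libraries was not. Their values are therefore given relative to the mean of the 2 control libraries, as is done for every other gene with an open level.

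None of the 7 genes tested passed an adjusted p of 0.05 (limma on log2(FPKM + 1), Benjamini-Hochberg over all genes tested). That threshold was passed by 0.108% of all genes, 13 of 12021. An unadjusted p under 0.05 was found for 1 of the 7, Egfr, which was higher in HDAC4 KO. Over all genes 11% had such a p and were higher, and 3.81% had such a p and were lower. In 4 of the 7 genes (Fgfr1, Fgf2, Egfr and Hbegf) both HDAC4 KO libraries lay above both control libraries, and in 0 of the 7 they lay below. Over all genes tested, 31% lay wholly above and 17.7% wholly below. The median log2 difference of the 7 was 0.24 beside 0.04 over all genes, and 5 of the 7 differences were above 0, beside 57.5% of all genes.

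**Figure D1:**
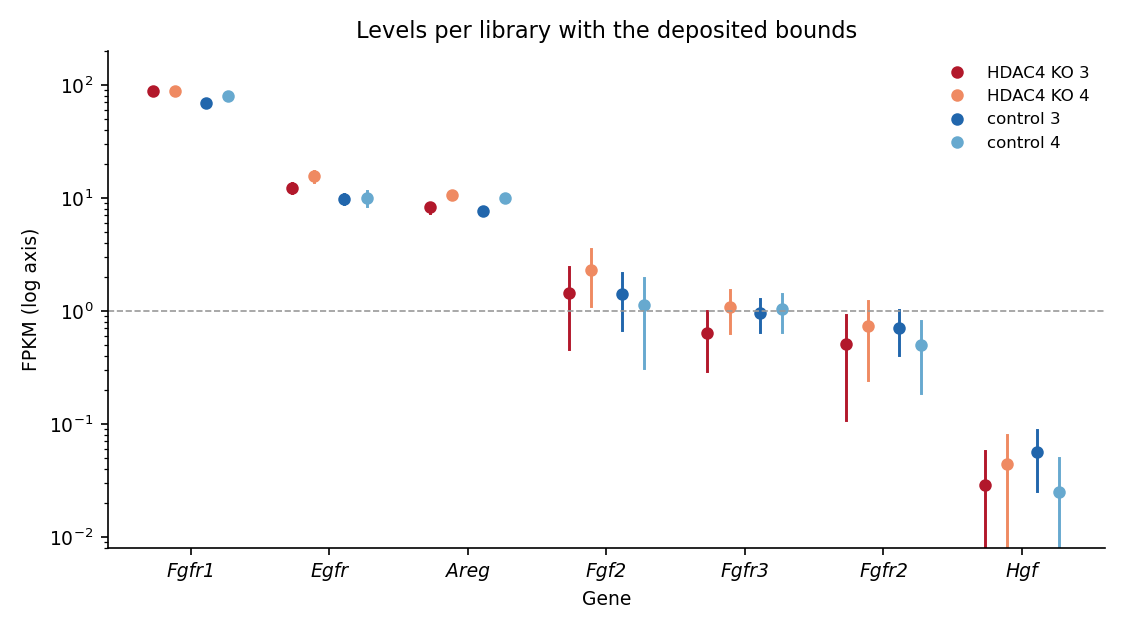
Levels of the 7 genes whose scale was settled, in FPKM on a log axis, for HDAC4 KO 3 and 4 (red) and control 3 and 4 (blue). Points are library estimates, vertical lines are the deposited confidence bounds (lines that reach the lower edge run on to 0 or below the axis), and the dashed line marks 1 FPKM. Fgfr1 lies at 68.7 to 87.7 FPKM and Hgf at 0.025 to 0.0566 FPKM.

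**Figure D2:**
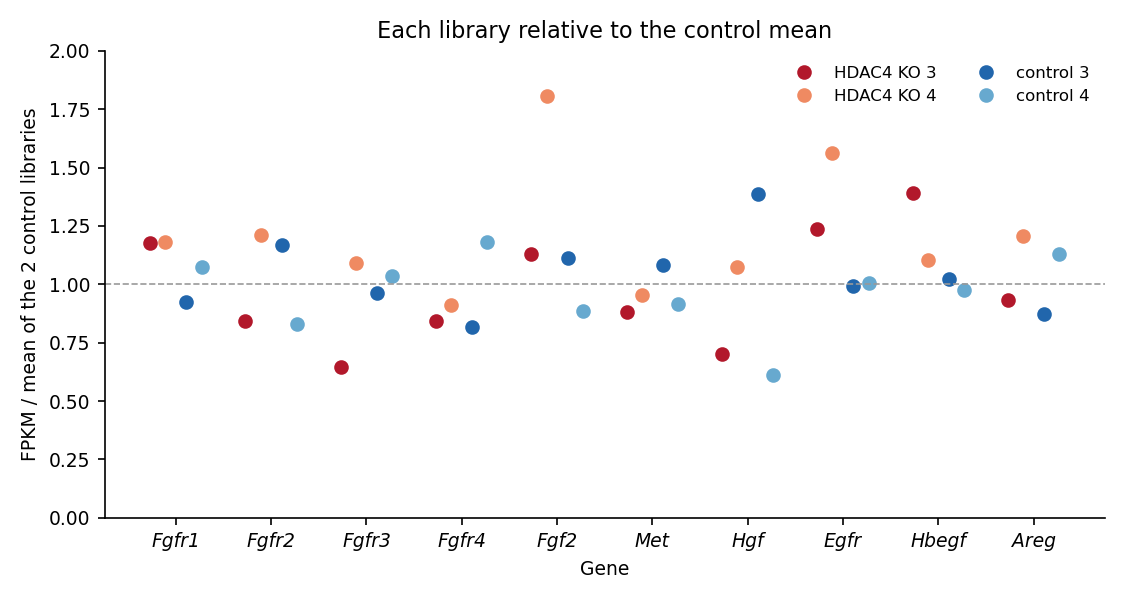
All 10 genes in each library, as FPKM divided by the mean of the 2 control libraries (dashed line at 1), with HDAC4 KO in red and control in blue. Both red points lie above both blue points for Fgfr1, Fgf2, Egfr and Hbegf.

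Among the FGF receptors, Fgfr1 (chr8:25513654-25575714 of GRCm38, as all positions from the files below) had the highest level of those settled. It is the main FGF receptor of myogenic cells in culture. Its level was 87.3 and 87.7 FPKM in HDAC4 KO 3 and 4, against 68.7 and 79.8 FPKM in control 3 and 4. The HDAC4 KO libraries agreed closely and both exceeded the controls, which were further from each other than the nearer control was from HDAC4 KO. The means were 87.5 ± 0.244 FPKM in HDAC4 KO and 74.3 ± 7.90 FPKM in control (SD, n = 2 each), which gave a log2 difference (on log2(FPKM + 1)) of 0.24 ± 0.11 (SE; 95% interval -0.05 to 0.52) with an adjusted p of 0.404 by limma. The difference was 0.13 without control 3 and 0.34 without control 4.

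Fgfr4 (chr13:55152640-55168759), the FGF receptor that is typical of the muscle lineage, did not separate the groups. It was at 0.845 and 0.909 of the control mean in HDAC4 KO 3 and 4, against 0.818 in control 3 and 1.18 in control 4. Control 4 was the high library and the other 3 lay close together. Its log2 difference was -0.16 ± 0.19 (SE; 95% interval -0.64 to 0.33; adjusted p = 0.718 by limma), and it turned to 0.09 without control 4. The most weighted of the 3 levels left by the digits, with a weight of 0.921, put Fgfr4 at 13.5 to 19.6 FPKM, below Fgfr1.

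Fgfr3 and Fgfr2 were near or below 1 FPKM. Fgfr3 stood at 0.641 and 1.09 FPKM in HDAC4 KO, against 0.960 and 1.03 FPKM in control. Fgfr2 stood at 0.511 and 0.735 FPKM in HDAC4 KO, against 0.709 and 0.503 FPKM in control. For both genes the groups overlapped, and the ranges of the 2 genes overlapped as well, so their order is not resolved. Fgfr2 exons share 314 bases with Ctbp2 on the same strand and Fgfr3 exons share 998 bases with an opposite-strand transcript, and reads there may be shared.

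Fgf2 (chr3:37312519-37405377) encodes a basic FGF without a classical secretion signal that binds heparan sulphate of the matrix. It stood at 1.44 and 2.30 FPKM in HDAC4 KO 3 and 4, against 1.42 and 1.13 FPKM in control 3 and 4. The lower HDAC4 KO library exceeded the higher control by less than the width of the bounds, which ran from 0.461 to 2.42 FPKM in HDAC4 KO 3 and from 0.671 to 2.17 FPKM in control 3. The resulting log2 difference was 0.32 ± 0.21 (SE; 95% interval -0.23 to 0.88; adjusted p = 0.515 by limma), and it was 0.11 without HDAC4 KO 4 and 0.54 without HDAC4 KO 3. Exons of Nudt6, a neighbouring gene on the opposite strand, cover 640 bases of Fgf2 exons. Those of the transcript Gm43439, on the same strand, cover 255 bases, and reads there may be shared.

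Of 21 other FGF ligand genes, 3 reached the test and 0 passed it, 15 had a mean under 1 FPKM and 3 were listed at 0 in every library. The median log2 difference of those tested was -0.18, beside 0.04 over all genes. The smallest unadjusted p belonged to Fgf11, an intracellular FGF homologue that does not act through FGF receptors. Fgf11 was at 0.679 and 0.785 of the control mean in HDAC4 KO, against 0.990 and 1.01 in control, a log2 difference of -0.39 ± 0.12 (SE; unadjusted p = 0.0214, adjusted p = 0.264, limma). Fgf15, a secreted endocrine FGF, stood at 0.890 and 0.988 FPKM in HDAC4 KO, against 1.21 and 1.17 FPKM in control, with an adjusted p of 0.653 by limma.

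Ligands that use the receptors above were low. Fgf1, which binds all FGF receptors, stood at 0.933 and 1.19 FPKM in HDAC4 KO, against 0.562 and 0.315 FPKM in control. Fgf7, a ligand of the epithelial form of FGFR2, stood at 0.821 and 0.781 FPKM in HDAC4 KO, against 0.517 and 0.332 FPKM in control. For both genes the HDAC4 KO libraries lay above the controls, at levels under the filter, and no test was made. Among genes tested 31% lay wholly above, and no such share was taken for genes under the filter. Fgf6, a muscle-restricted FGF, was listed at 0 and 0.0199 FPKM in HDAC4 KO and at 0.0672 and 0 FPKM in control.

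Of 10 FGF co-receptor, docking and binding protein genes, 6 were tested and 0 passed, with a median log2 difference of 0.07. Fgfbp1, a carrier that releases FGFs from the matrix, had the smallest p. It stood at 10.2 and 9.54 FPKM in HDAC4 KO, against 6.93 and 6.24 FPKM in control, a log2 difference of 0.52 ± 0.11 (SE; unadjusted p = 0.00538, adjusted p = 0.199, limma). The libraries of the groups did not overlap. Fgfbp3, a second carrier, had a log2 difference of 0.23 and Frs3, a docking protein of FGF receptors, had -0.28. Fgfrl1, a receptor without a kinase, had a log2 difference of -0.10, and the unadjusted p of these 3 genes ran from 0.232 to 0.339 (limma).

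In the HGF system, the receptor gene Met (chr6:17463800-17573980) did not separate the groups. Met was at 0.883 and 0.955 of the control mean in HDAC4 KO 3 and 4, against 1.08 and 0.917 in control 3 and 4. The 4 libraries alternated between the groups. For Met the log2 difference was -0.10 ± 0.12 (SE; 95% interval -0.43 to 0.22; adjusted p = 0.719 by limma). It was 0.00 without control 3. Of the 2 levels left by the digits, the one with a weight of 0.722 put Met at 6.49 to 7.97 FPKM.

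Hgf was barely detected. It stood at 0.0286 and 0.0438 FPKM in HDAC4 KO, against 0.0566 and 0.0250 FPKM in control. The bounds of these values corresponded to 4 and 6 fragments in HDAC4 KO 3 and 4, against 13 and 4 fragments in control 3 and 4. A difference in Hgf was not detectable at this depth. Exons of Gm43489, on the same strand, cover 484 bases of Hgf exons, and reads there may be shared.

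Of 9 genes for HGF activation and the MET family, 4 were tested and 0 passed. All 4 had both HDAC4 KO libraries above both controls, as did 31% of all genes, and their median log2 difference was 0.58, beside 0.04 over all genes. An unadjusted p under 0.05 was found for 3 of them, all higher in HDAC4 KO, as for 11% of all genes. Plau encodes urokinase, a plasminogen activator that can also cut the HGF precursor. Plau stood at 72.0 and 71.8 FPKM in HDAC4 KO, against 45.6 and 48.3 FPKM in control, a log2 difference of 0.60 ± 0.09 (SE; 95% interval 0.37 to 0.84; unadjusted p = 0.00123, adjusted p = 0.141, limma). The gap between the groups exceeded the spread within each of them.

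Spint1, which encodes an inhibitor of HGF-activating proteases, stood at 1.74 and 1.55 FPKM in HDAC4 KO, against 0.626 and 0.866 FPKM in control, with a log2 difference of 0.60 ± 0.18 (SE; adjusted p = 0.266, limma). Plat, tissue plasminogen activator, stood at 1.78 and 1.77 FPKM in HDAC4 KO, against 1.05 and 0.747 FPKM in control (adjusted p = 0.282, limma). Genes for proteases and for an inhibitor of such proteases thus lay on the same side. St14, which encodes the protease matriptase, had a mean just under 1 FPKM and was named after its values were seen, as were Plat and Spint2. St14 stood at 1.46 and 1.34 FPKM in HDAC4 KO, against 0.5036 and 0.4998 FPKM in control. Spint2, a related inhibitor, had a log2 difference of 0.17 ± 0.18 (SE). Hgfac, the serum activator of HGF, stood at 0.138 and 0.233 FPKM in HDAC4 KO, against 0.147 and 0.155 FPKM in control.

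Egfr (chr11:16752203-16918158) had the smallest p of the 7 genes tested. It encodes the receptor of EGF, TGF-alpha, HB-EGF and amphiregulin. Egfr stood at 12.3 and 15.5 FPKM in HDAC4 KO 3 and 4, against 9.85 and 9.96 FPKM in control 3 and 4. The controls were nearly equal, both HDAC4 KO libraries exceeded them, and HDAC4 KO 4 was the higher of the pair. The bounds of HDAC4 KO 3, 11.04 to 13.49 FPKM, overlapped those of control 4, 8.53 to 11.4 FPKM. The means were 13.9 ± 2.27 FPKM in HDAC4 KO and 9.90 ± 0.0785 FPKM in control (SD, n = 2 each). On the log2 scale the difference was 0.44 ± 0.14 (SE; 95% interval 0.09 to 0.79; unadjusted p = 0.0244, adjusted p = 0.273, limma). The difference ran from 0.28 without HDAC4 KO 4 to 0.60 without HDAC4 KO 3, and leaving out a control gave 0.43 or 0.45. The unadjusted p by limma stayed under 0.05 with HDAC4 KO 3 left out (0.0233) but not with HDAC4 KO 4 (0.145), control 3 (0.116) or control 4 (0.109) left out. The glial and the smooth muscle and pericyte markers tested above were higher in the same libraries, and their part in the Egfr values was not tested.

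Hbegf encodes heparin-binding EGF-like growth factor, a membrane-anchored ligand that is shed by metalloproteases. It was at 1.39 and 1.11 of the control mean in HDAC4 KO 3 and 4, against 1.02 and 0.977 in control 3 and 4. The controls were close together and HDAC4 KO 3 was the high library, the reverse of Egfr, where HDAC4 KO 4 was higher. Its log2 difference was 0.31 ± 0.14 (SE; 95% interval -0.05 to 0.67; adjusted p = 0.394, limma). It was 0.14 without HDAC4 KO 3 and 0.47 without HDAC4 KO 4. The level was open between 15.97 and 159.7 FPKM in control 3, with weights of 0.376 and 0.624, and at the lower of these levels the log2 difference was 0.29.

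Areg (chr5:91139615-91148432) encodes amphiregulin, a ligand of the EGF receptor alone among the ERBB receptors. It stood at 8.24 and 10.6 FPKM in HDAC4 KO 3 and 4, against 7.69 and 9.97 FPKM in control 3 and 4. In each group the library numbered 4 was the higher, and the groups overlapped. The log2 difference was 0.09 ± 0.18 (SE; 95% interval -0.38 to 0.55; adjusted p = 0.841, limma). It turned to -0.08 without control 3 and to -0.08 without HDAC4 KO 4.

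**Figure D3:**
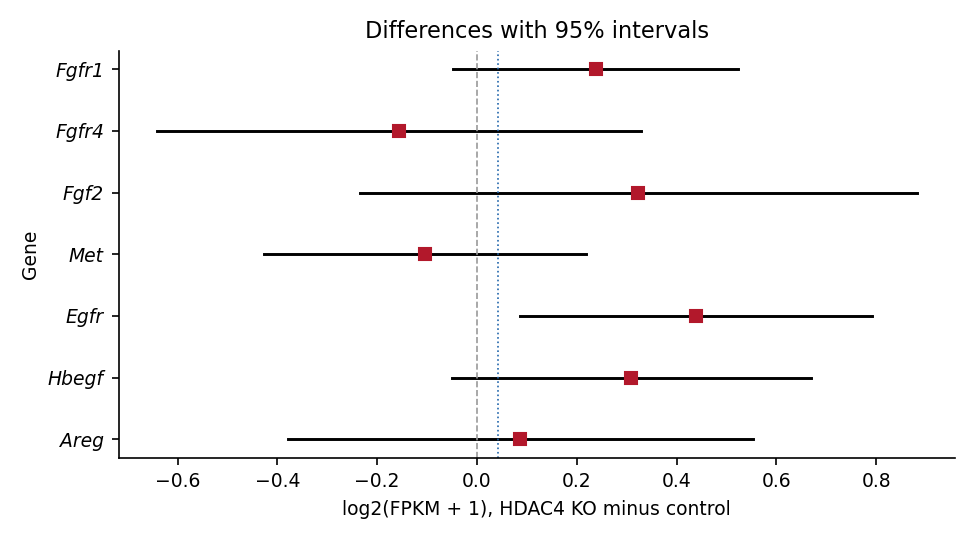
Log2 differences (HDAC4 KO minus control, on log2(FPKM + 1)) of the 7 genes tested, with squares for the limma estimates and lines for the 95% intervals. The dashed line is at 0 and the dotted line at the median of all genes, 0.04. The interval of Egfr, 0.09 to 0.79, is the one that lies wholly above 0.

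The promoter sequences of Egfr and Areg are shown because the groups overlapped for this ligand gene and not for its receptor gene, and both had settled levels. No test compared the 2 genes, and their 95% intervals, 0.09 to 0.79 for Egfr and -0.38 to 0.55 for Areg, overlapped. The 250 bases before the start of each gene were read from RefSeq (GRCm38.p6, plus strand), which held promoters for 8 of the 10 genes. They lie at chr11:16751953-16752202 for Egfr and at chr5:91139349-91139598 for Areg. Capitals mark GGGCGG, the core letters of a GC box, read on either strand, and for Areg also TGACGTCA, the cAMP response element, and TATAAA, the TATA box.
Egfr: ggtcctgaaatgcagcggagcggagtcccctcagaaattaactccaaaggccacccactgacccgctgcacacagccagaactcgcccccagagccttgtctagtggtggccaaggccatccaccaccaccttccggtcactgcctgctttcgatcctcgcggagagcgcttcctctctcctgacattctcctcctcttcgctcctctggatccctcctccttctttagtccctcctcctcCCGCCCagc
Areg: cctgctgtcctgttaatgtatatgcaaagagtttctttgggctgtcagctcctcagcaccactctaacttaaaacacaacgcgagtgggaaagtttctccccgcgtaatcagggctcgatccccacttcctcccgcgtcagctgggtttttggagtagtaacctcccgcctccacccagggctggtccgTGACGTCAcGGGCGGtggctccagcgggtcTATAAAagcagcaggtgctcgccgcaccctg
The Egfr window held GGGCGG on the minus strand next to the start and no TATAAA. The Areg window held all 3 motifs within its last stretch, without overlap. Of 32851 promoter windows of the same length, 32.7% held GGGCGG, 1.55% held TGACGTCA and 12.4% held TATAAA, both strands searched. Of the 10 windows of these genes (Fgfr3 and Hgf have 2 each), 7 held GGGCGG and 1 each held TGACGTCA and TATAAA, both of them in Areg. TGANTCA, the AP-1 motif, was found in 1 of the 10 windows, that of Met, and in 6.75% of all windows. The MEF2 motif, bound by factors with which HDAC4 is known to associate, was found in 0 of the 10 and in 2.92% of all windows. These matches describe letters and say nothing of binding.

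Of 9 other EGF family ligand genes, 2 were tested and 0 passed, with a median log2 difference of -0.27. Tgfa, which encodes TGF-alpha, stood at 1.69 and 1.06 FPKM in HDAC4 KO, against 1.42 and 2.44 FPKM in control (adjusted p = 0.613, limma). Nrg4, a ligand of ERBB4, was at 0.728 and 0.846 of the control mean in HDAC4 KO, against 1.02 and 0.9751 in control (adjusted p = 0.452, limma). Areg lay above Tgfa in all 4 libraries. The other 7 genes, among them Egf, Btc, Ereg and Nrg1, had a mean under 1 FPKM or were listed at 0.

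Of 12 genes for the other ERBB receptors, sheddases and brakes, 11 were tested and 0 passed, with a median log2 difference of 0.05. An unadjusted p under 0.05 was found for 2 higher and 2 lower in HDAC4 KO, beside 11% higher and 3.81% lower of all genes. Errfi1, an ERK-induced inhibitor that binds the EGF receptor kinase, stood at 153 and 146 FPKM in HDAC4 KO, against 180 and 178 FPKM in control, a log2 difference of -0.26 ± 0.09 (SE; unadjusted p = 0.0336, adjusted p = 0.3, limma). Its HDAC4 KO libraries both lay below the controls, while those of Egfr lay above. Rhbdf2 and Rhbdf1 encode inactive rhomboids that escort the sheddase ADAM17. Rhbdf2 was at 1.48 and 1.32 of the control mean in HDAC4 KO, against 1.01 and 0.986 in control. Rhbdf1 was at 0.824 and 0.698 of the control mean in HDAC4 KO, against 0.981 and 1.02 in control, so the homologues lay on opposite sides, with adjusted p of 0.252 for Rhbdf2 and 0.266 for Rhbdf1 (limma).

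Adam12, a metalloprotease that can shed HB-EGF, stood at 9.71 and 9.60 FPKM in HDAC4 KO, against 7.49 and 5.73 FPKM in control (log2 difference 0.50 ± 0.14, SE; adjusted p = 0.257, limma). Erbb2, the co-receptor without a ligand, stood at 7.51 and 7.17 FPKM in HDAC4 KO, against 9.20 and 8.41 FPKM in control (adjusted p = 0.399, limma). Erbb3, a neuregulin receptor of glial and muscle cells, was at 1.10 and 1.20 of the control mean in HDAC4 KO, against 0.986 and 1.01 in control (adjusted p = 0.668, limma).

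Downstream of the receptors, 10 adaptor genes, 15 genes of the RAS and MAP kinase core and 12 of 14 ERK feedback and target genes were tested, and 0 passed. The median log2 difference was 0.19 for the adaptors, -0.13 for the kinase core and -0.02 for the feedback genes. Of the adaptors 8 of 10 were above 0, and of the kinase core 3 of 15, beside 57.5% of all genes. Over all 8 lists around the receptors, 63 of 100 genes were tested, and the median log2 difference was -0.01, beside 0.04 over all genes. Of those tested, 12.7% had an unadjusted p under 0.05 and were higher, beside 11% of all genes. Another 7.94% had one and were lower, beside 3.81% of all genes.

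Grb2, the adaptor that links receptors to RAS activation, stood at 47.4 and 48.7 FPKM in HDAC4 KO, against 37.4 and 40.7 FPKM in control (log2 difference 0.29 ± 0.10, SE; unadjusted p = 0.0284, adjusted p = 0.286, limma). Plcg1, a phospholipase recruited by FGF and EGF receptors, stood at 28.6 and 35.8 FPKM in HDAC4 KO, against 22.6 and 25.7 FPKM in control (adjusted p = 0.325, limma). Both genes had HDAC4 KO libraries above the controls. On the adaptor list 6 of 10 genes lay wholly above and 1 wholly below, beside 31% and 17.7% of all genes. Sos1, a RAS exchange factor, had a log2 difference of -0.20 and Ptpn11, the phosphatase SHP2, one of -0.01.

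In the kinase core, Mapk3, which encodes ERK1, stood at 69.2 and 57.8 FPKM in HDAC4 KO, against 76.9 and 79.3 FPKM in control (adjusted p = 0.351, limma). Map2k1, which encodes MEK1, had a log2 difference of 0.21 and Hras one of 0.13, so members of the same cascade lay on both sides of 0.

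Among the genes that ERK signalling induces, Etv5 and Dusp6 had the smallest p and were lower in HDAC4 KO. Etv5, a transcription factor induced by FGF signalling, stood at 20.3 and 20.9 FPKM in HDAC4 KO, against 26.0 and 29.1 FPKM in control, a log2 difference of -0.40 ± 0.10 (SE; unadjusted p = 0.0120, adjusted p = 0.236, limma). Dusp6, the ERK phosphatase, stood at 23.8 and 23.8 FPKM in HDAC4 KO, against 29.4 and 31.8 FPKM in control, a log2 difference of -0.35 ± 0.09 (SE; unadjusted p = 0.0146, adjusted p = 0.245, limma). For both genes the HDAC4 KO libraries nearly coincided and lay below both controls. Dusp4, a nuclear MAP kinase phosphatase, stood at 51.3 and 56.5 FPKM in HDAC4 KO, against 44.8 and 49.3 FPKM in control (adjusted p = 0.46, limma). Etv1, a factor of the same family as Etv5, stood at 1.68 and 1.07 FPKM in HDAC4 KO, against 0.838 and 0.945 FPKM in control (adjusted p = 0.512, limma), so targets of the same pathway lay on both sides.

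**Figure D4:**
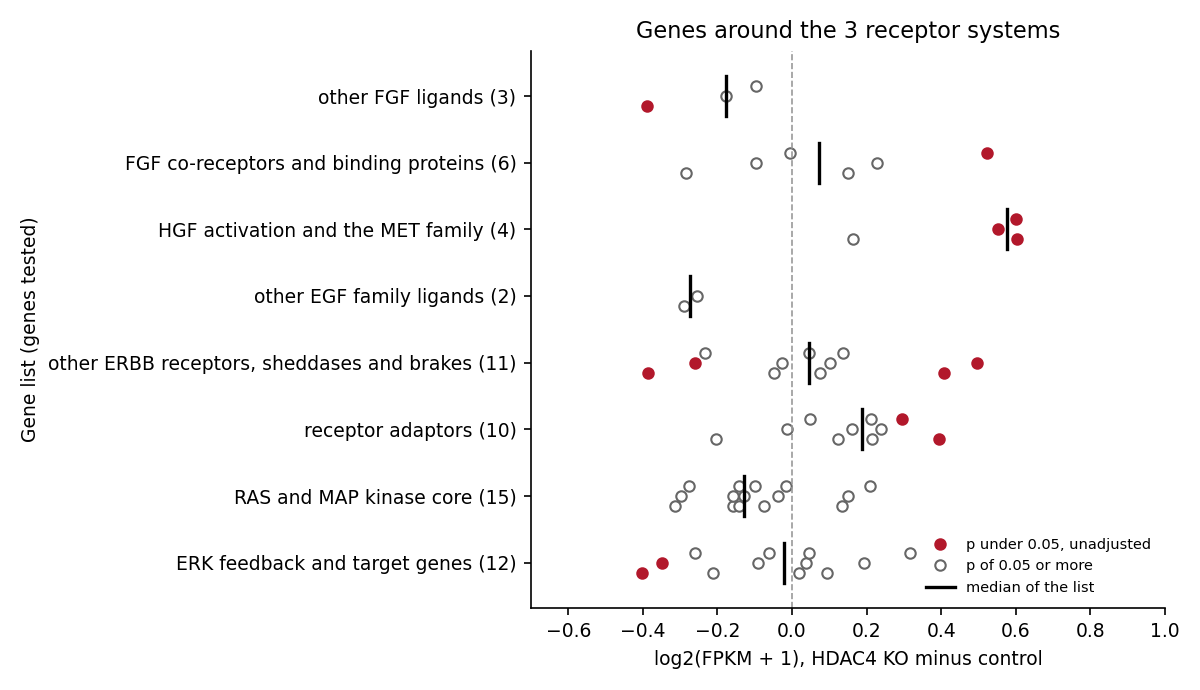
Log2 differences (HDAC4 KO minus control, on log2(FPKM + 1)) of the 63 genes tested in 8 lists around the receptors, with the number tested beside each list. Red points had an unadjusted p under 0.05, open points did not, and black bars are list medians. The list for HGF activation and the MET family has its median at 0.58, and none of the points passed an adjusted p of 0.05.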

How the data were processed

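RNA-seq was made from 2 HDAC4 KO and 2 control libraries with a stranded mRNA kit and single-end sequencing. Per the submitters' processing notes and the study's methods, the authors used CASAVA 1.8.2, trimmed reads with ERNE and cutadapt, aligned them to GRCm38 with TopHat and ran Cufflinks and Cuffdiff. The deposited tables give, for every library, FPKM by gene with confidence bounds, and a Cuffdiff table gives a pooled FPKM per group. That table also holds fold changes, test statistics, p-values and q-values of the authors, none of which were used.

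Numbers of 1 or more with 3 or more decimals had lost the point. It was put back where the estimate lay midway between its bounds (tolerance 4e-05 of the upper bound) and the library mean matched the pooled value up to a constant (tolerance 0.003, log10). The ratio between libraries was then taken by closeness of levels and equal relative width of the bounds. Of 43437 gene entries, 17712 were listed at 0 throughout and 25384 were kept. A power of 10 common to the libraries was open for 5394 of the 12021 genes tested. The width of the bounds gave the right level for 485 of 500 genes with a hidden known level, at a weight of at least 0.95. Simulated restoration gave right ratios for 2940 of 2940 genes kept, under the same rules. Its levels came from genes already kept, and its bounds used the same fragments per FPKM in every library. The simulated numbers thus met the assumptions of the rules, and this result cannot show how often ratios in the real data are right.

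Genes whose mean reached 1 FPKM were tested with limma 3.58.1 (R 4.3.3, trend) on log2(FPKM + 1), HDAC4 KO minus control, with Benjamini-Hochberg adjustment over all genes and a threshold of 0.05. The pseudocount of 1 makes the log2 difference of a low gene smaller than the log2 of its ratio. FPKM is no count, so no count test was run. In simulated data on 12021 genes, 1 of 50 genes changed 1.5-fold, 27 of 50 changed 2-fold and 45 of 50 changed 4-fold passed, with 8 false calls.

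Total counts are not used here. Where bounds gave whole fragments (within 0.003), fragments per FPKM were 0.618 in HDAC4 KO 3, 0.613 in HDAC4 KO 4 and 0.704 in control 4 relative to control 3, the deepest library. Such figures cover counting error only.

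The 10 genes and the lists were chosen with earlier results of these data known. Named genes are the 10, Hdac4, the 2 genes with the smallest p in each direction of each list, and Fgf1, Fgf6, Fgf7, Hgfac, Errfi1, Erbb2 and Erbb3 whatever their values. Plat, Spint2 and St14 and the markers given with values fall outside this rule and were named after their values were seen. The values of 1 gene that the rule takes are not reported here. No gene is named for a pattern like that of another, since 4 libraries are too few. Alternatives varied the pseudocount, the filter, the gene types tested, the scaling, the prior, the replicate block, the libraries and the points. The markers covered satellite, fibro-adipogenic, endothelial, blood, smooth muscle and pericyte, glial, tendon and mature myofibre cells.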

Additional observations from a re-analysis of the deposited data

How the results depend on the processing

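The count of genes changed in HDAC4 KO was 13, and it became 7 with a pseudocount of 0.1, 0 with no filter on low values, 2 with a mean of at least 5 FPKM, 66 with protein-coding genes alone (90.9% of them higher, beside 30.8%), and 6 with median-ratio scaling and 6 with quantile normalization (50% higher with each). It ran from 0 to 69 when 1 library was left out (0 without HDAC4 KO 3 or 4, 63 without control 4 and 69 without control 3). Genes with an unadjusted p under 0.05 numbered 1780 (74.3% higher), 2757 with no filter, and 822 to 2039 with 1 library left out. Median-ratio scaling left 58.9% of such genes higher and moved the median of all genes from 0.04 to -0.01. Of the 10 genes, 0 passed the adjusted threshold in any setting, and the count with an unadjusted p under 0.05 was 1 to 2, but not of the same genes: the gene was Fgfr4 (lower) without control 3, Fgfr1 without control 4 and Hbegf without HDAC4 KO 4, the 2 genes without HDAC4 KO 3 were Egfr and Fgf2, and in the other settings it was Egfr. Same-numbered libraries showed no shared deviation from their group means (correlation -0.077). With 2 libraries per group this is a single value, and it cannot show whether the libraries were prepared in pairs. With the replicate block 30 genes changed, and no call among the 10 genes did. The log2 difference of Hdac4 had an adjusted p of 0.048 with protein-coding genes alone (-1.13). With 1 library left out, differences ran from -0.408 (without control 3) to 0.093 (without control 4) for Fgfr4, from -0.209 to 0.002 (without control 3) for Met, and from -0.081 (without control 3; -0.08 without HDAC4 KO 4) to 0.255 for Areg, so that each turned sign. Other levels that the digits allow, tried after seeing the data, kept every direction, with Hbegf at 0.20 and 0.29, Fgfr1 at 0.21, Met at -0.12 and Fgfr4 at -0.11 and -0.17. The causes were not tested.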
